A study of Mus musculus with 9 samples.

Results

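The genes described here are 9 leukocyte homing adhesion molecules, taken by gene symbol from the 20603 genes of a deposited count table of mouse conjunctiva. All 9 had a row in the table, and all 9 had enough counts to be tested among the 15613 genes that passed a filter on low counts. They fall into 2 sets by where their products act. Icam1, Vcam1, Sele and Selp encode adhesion molecules that vessel walls display, and Itgal, Itgb2, Itga4, Itgb7 and Selplg encode the leukocyte integrin chains and the selectin ligand that bind them.

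White blood cells leave the blood in steps. Selectins on the vessel wall catch and slow rolling cells, chemokines then switch leukocyte integrins into a binding state, and the integrins hold fast to immunoglobulin-type ligands on the endothelium before the cell crosses. In allergic eye disease the conjunctiva, the thin mucosa over the sclera and inner lids, fills with T cells, eosinophils and other leukocytes that arrive by this route.

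Messenger RNA was measured in 9 libraries, each from the pooled conjunctiva of 3 mice on a C57BL/6j background, in 3 groups of 3 libraries. Challenged Vegfr3iLECko mice were Vegfr3 fl/fl and carried Prox1CreERT2, a tamoxifen-inducible Cre recombinase under the control of Prox1, a gene of lymphatic endothelial cells. Challenged controls and unchallenged controls were Vegfr3 fl/fl littermates without the Cre, so an effect of the Cre itself and of the loss of Vegfr3 cannot be told apart. Mice of all 3 groups, unchallenged ones included, had 5 tamoxifen injections (75 mg/kg) at week 5 and an ovalbumin (OVA) immunization with pertussis toxin and aluminum hydroxide at week 6. Challenged mice then had daily OVA eye drops in the right eye for 28 days, starting 14 days after immunization. The labels do not say whether unchallenged tissue came from saline-treated eyes of challenged animals or from other mice. None of the 9 libraries came from unchallenged knockouts. A genotype difference present before challenge thus cannot be told apart from one in the response to challenge. Replicates are pools of mice, so p-values measure the spread between pools.

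Total counts ranged from 16490050 to 24746836 per library. Flt4, which encodes Vegfr3, was at 13, 5.07 and 5.32 CPM, the read count relative to the library total with TMM scaling, in the 3 knockout libraries, against 13.4, 20.3 and 20.1 CPM in the challenged controls. Knockout 1 thus sat just under the lowest challenged control, and the difference of the whole groups did not pass over all genes (edgeR log2 fold change -1.20, adjusted p = 0.468). Markers of conjunctival epithelium were abundant in every library, with summed levels of 19346 to 35306 CPM. Markers of skeletal muscle, a tissue that lies near the conjunctiva, summed to 2550.5 to 3974 CPM in knockouts, 371 to 1032 CPM in challenged controls and 1727 to 6039.6 CPM in unchallenged controls.

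The stretches before the transcription start of 3 vessel-wall genes are shown first, because those genes carry the largest differences between libraries described below. Of the 9 genes, 5 have an entry in the RefSeq promoter table (build GRCm38.p6): Icam1, Sele, Selp, Itga4 and Itgb7. The 250 bases before the start are printed 5′ to 3′ on the coding strand, and capitals mark matches to GGANNTTCC, a core of NF-kB binding sites. Icam1 lies at chr9:21015690-21015939, Sele at chr1:164047984-164048233 and Selp at chr1:164115014-164115263, all on the plus strand.
Icam1: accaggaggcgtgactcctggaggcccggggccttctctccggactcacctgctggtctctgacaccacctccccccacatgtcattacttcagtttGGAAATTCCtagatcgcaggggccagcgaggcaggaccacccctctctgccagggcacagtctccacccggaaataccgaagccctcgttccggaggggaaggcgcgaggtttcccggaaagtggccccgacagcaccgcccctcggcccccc
Sele: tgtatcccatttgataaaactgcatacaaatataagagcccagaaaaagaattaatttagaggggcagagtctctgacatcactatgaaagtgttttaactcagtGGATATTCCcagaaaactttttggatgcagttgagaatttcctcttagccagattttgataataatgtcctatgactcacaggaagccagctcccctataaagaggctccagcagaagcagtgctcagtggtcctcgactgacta
Selp: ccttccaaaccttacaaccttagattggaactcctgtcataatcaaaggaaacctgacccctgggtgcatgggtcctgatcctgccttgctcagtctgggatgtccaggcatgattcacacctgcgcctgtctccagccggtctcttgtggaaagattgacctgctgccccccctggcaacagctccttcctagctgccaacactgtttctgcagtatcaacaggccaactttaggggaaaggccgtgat
Icam1 and Sele each held 1 match to this core, starting 153 bases before the start in Icam1 and 145 bases before it in Sele. Selp, Itga4 and Itgb7 held no match in this window. Over all 32851 promoter windows of this length, searched on both strands, 3.59% held the core. Its letters were chosen after the sequences had been seen, and a match is not a bound site.

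In each of the 4 vessel-wall genes, challenged control 1 stood above the 8 other libraries, by a factor of 4.18 or more over the next. In bulk tissue, fewer cells of a type and less RNA per cell cannot be told apart, and this holds for each level given here.

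Sele encodes E-selectin, which endothelium makes anew after cytokine stimulation and which starts rolling. It had 2.41, 0.413 and 0.915 CPM in the challenged knockouts. Among challenged controls it had 18.8 CPM in library 1, 0.224 CPM in library 2 and no count in library 3, where 3 counts of the total would have been 0.163 CPM. The unchallenged controls had 0.314, 1.57 and 0.210 CPM. Behind these values stand 85 counts in the knockouts, 309 in the challenged controls, of which 304 came from library 1, and 51 in the unchallenged controls. A single library is thus high and the other 8 overlap.

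Selp encodes P-selectin, which endothelial cells and platelets store in granules and bring to the surface within minutes. Its levels were 4.05, 1.42 and 1.20 CPM in the challenged knockouts, 27.5, 1.12 and 0.342 CPM in the challenged controls and 0.523, 1.61 and 0.367 CPM in the unchallenged controls. Challenged control 1 was 6.80-fold above the next library, knockout 1. Platelet markers summed to 107 CPM in challenged control 1 and 92.1 CPM in knockout 1, against 26.1 to 40.8 CPM in the 7 other libraries. Of the 3 members with enough counts to be tested, Pf4 and Itga2b did not share this. The high sums thus came mostly from the rest of the list. Pf4, the most abundant, was at 24.4 and 25.2 CPM in these libraries, against 28.5 CPM in unchallenged control 1. Itga2b was at 6.56 and 10.5 CPM in them, against 14.1 and 14.5 CPM in knockouts 2 and 3. The part of platelets in the Selp level was not tested. Exons of Selp also overlap those of Gm16548 and Gm16587 on the opposite strand in the GENCODE M21 annotation (GRCm38), and with no strand setting stated, reads of these genes cannot be told apart.

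Icam1 encodes the ligand of the integrin LFA-1 and is made by endothelium, and also by epithelial cells and leukocytes. It was at 35.5, 50.5 and 38.9 CPM in the challenged knockouts, 321, 23.7 and 36.4 CPM in the challenged controls and 23.4, 21.9 and 21.8 CPM in the unchallenged controls. All 6 challenged libraries were thus above all 3 unchallenged ones, although challenged control 2 only just. The means were 41.7 ± 7.83 CPM in knockouts, 127 ± 168 CPM in challenged controls and 22.4 ± 0.868 CPM in unchallenged controls (SD, n = 3 pools each). The challenged control SD exceeds its mean because library 1 held 5184 of the group's 6352 counts.

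Vcam1 encodes the ligand of the integrins with an Itga4 chain, on endothelium and on some stromal cells and macrophages. Its levels were 17.0, 7.73 and 8.81 CPM in the challenged knockouts, 87.2, 20.8 and 13.1 CPM in the challenged controls and 14.0, 10.1 and 6.72 CPM in the unchallenged controls. Challenged control 3 fell within the range of the unchallenged controls, and knockouts and unchallenged controls overlapped throughout.

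**Figure D1:**
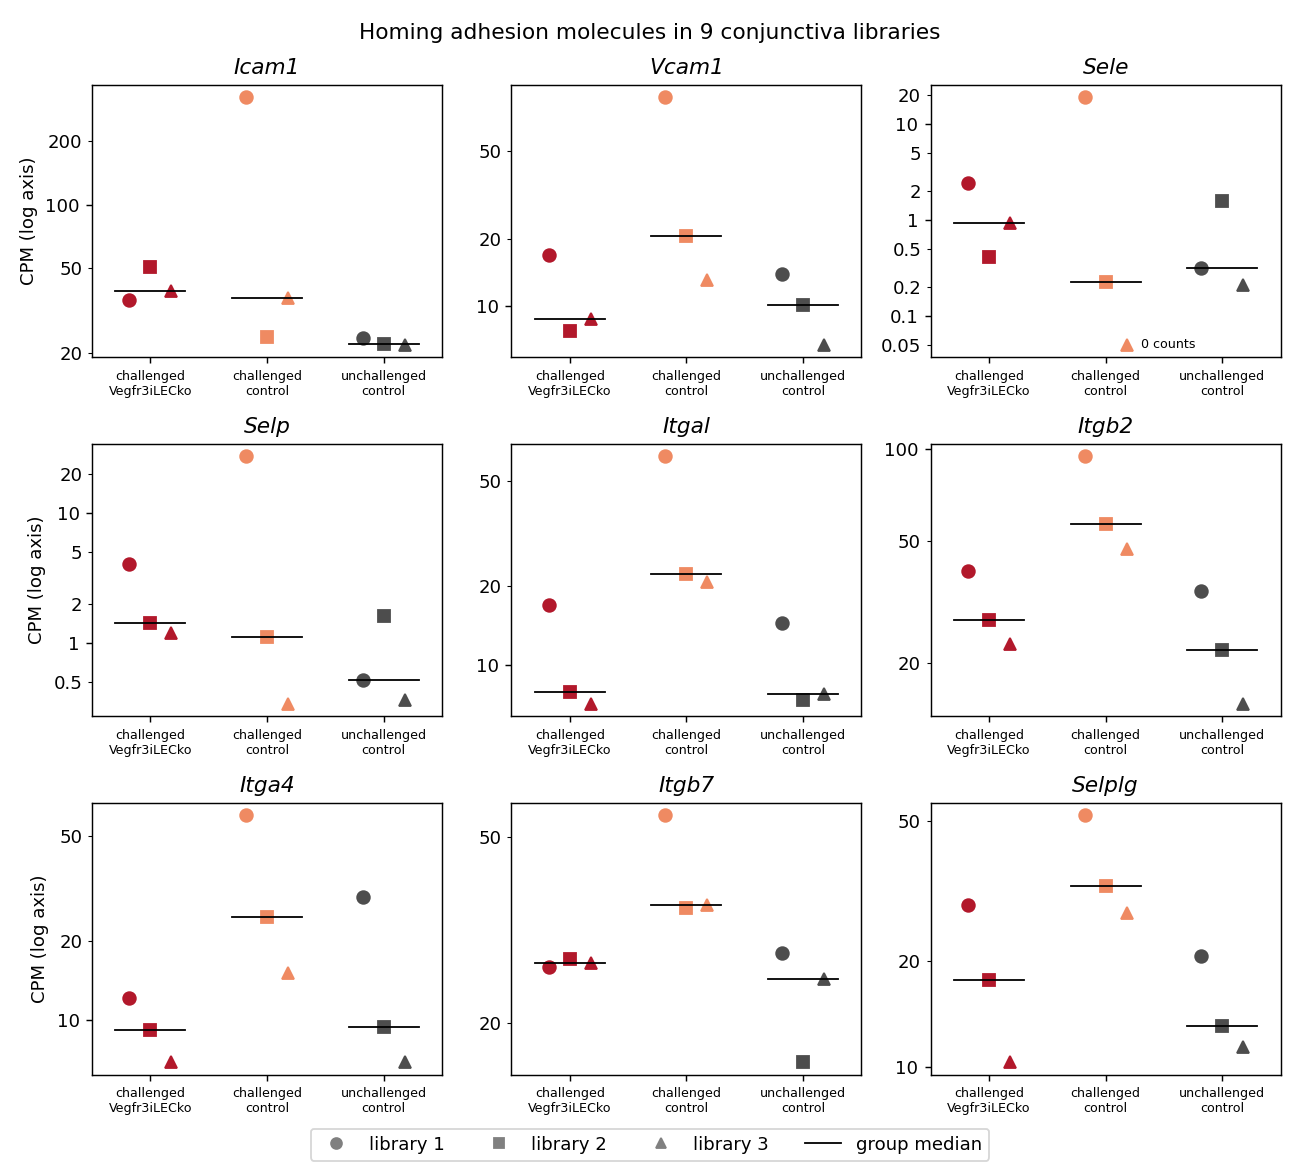
Levels of the 9 genes in CPM on a log axis (a separate axis for each gene), with 1 point per library in each of the 3 groups and a line at the group median. The library of challenged control 1 is the highest of the 9 in every panel, and Sele has no count in challenged control 3, drawn at the foot of its panel.

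In each of the 5 leukocyte genes, every challenged control stood above the unchallenged control of the same number, which also held for Icam1 and Vcam1 but not for Sele and Selp. Itgal encodes the alpha chain of LFA-1, the integrin of T cells and other leukocytes that binds Icam1. It had 16.9, 7.90 and 7.15 CPM in the challenged knockouts, 62.1, 22.2 and 20.6 CPM in the challenged controls and 14.4, 7.35 and 7.77 CPM in the unchallenged controls. All 3 challenged controls exceeded every library of both other groups, which overlapped with each other.

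Itgb2, the beta chain shared by LFA-1 and the myeloid integrins, was at 39.9, 27.5 and 23.0 CPM in the challenged knockouts. It was at 94.6, 56.6 and 46.9 CPM in the challenged controls and 34.4, 22.0 and 14.7 CPM in the unchallenged controls. Here too the challenged controls stood apart from both other groups.

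Itga4 encodes the alpha chain that pairs with the beta 1 chain to bind Vcam1, and with Itgb7 to bind Madcam1 in the gut wall. Its levels were 12.2, 9.20 and 6.92 CPM in the challenged knockouts, 60.4, 24.7 and 15.1 CPM in the challenged controls and 29.4, 9.42 and 6.93 CPM in the unchallenged controls. Unchallenged control 1 lay above challenged controls 2 and 3, so the control groups overlapped, while all 3 knockouts lay below all 3 challenged controls. Exons of Itga4 overlap Cerkl on the opposite strand in the same annotation.

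Itgb7 encodes the beta chain that pairs with Itga4 or with Itgae. It was at 26.4, 27.4 and 26.9 CPM in the challenged knockouts, 55.7, 35.3 and 35.8 CPM in the challenged controls and 28.2, 16.5 and 24.8 CPM in the unchallenged controls. Of the 9 genes it had the smallest relative spread in the knockouts (26.9 ± 0.508 CPM, SD, n = 3).

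Selplg encodes PSGL-1, the leukocyte ligand of all 3 selectins. Its levels were 28.8, 17.6 and 10.3 CPM in the challenged knockouts, 52.0, 32.6 and 27.4 CPM in the challenged controls and 20.6, 13.1 and 11.4 CPM in the unchallenged controls. The control groups did not overlap, and knockout 1 lay above challenged control 3.

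All 9 genes had their highest level in challenged control 1, as had 22.3% of all genes tested. That library was at least 2-fold above each of the others in Icam1, Vcam1, Sele, Selp, Itgal and Itga4, and in 3.20% of all genes tested. The factor over the next library was 6.35 for Icam1, 4.18 for Vcam1, 7.79 for Sele and 6.80 for Selp. It was 2.80 for Itgal, 2.05 for Itga4, 1.67 for Itgb2, 1.60 for Selplg and 1.56 for Itgb7.

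Per kilobase of merged exon (GENCODE M21), the genes can be set in order in the unchallenged conjunctiva. Itgb7 was highest at 8.36 ± 2.17 CPM per kilobase, followed by Itgb2 at 7.76 ± 3.26, Icam1 at 5.14 ± 0.199 and Selplg at 3.52 ± 1.14 (SD, n = 3). Itgal followed at 1.5 ± 0.606 CPM per kilobase, Vcam1 at 1.16 ± 0.409, Itga4 at 1.09 ± 0.882, Sele at 0.240 ± 0.260 and Selp at 0.189 ± 0.153. Neighbours in this order differed by less than the larger of their SDs, except Icam1 and Selplg, and Selplg and Itgal. Per kilobase the partner chains of LFA-1 were unequal, with Itgb2 at 21.6 ± 8.26 and Itgal at 5.32 ± 3.58 in challenged controls. The length counts every annotated exon, which for Itga4 comes to 13978 bases, so genes with long rare exons are set too low.

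The first comparison asked what repeated OVA drops did to controls. None of the 9 genes passed an adjusted p of 0.05 over all genes by edgeR's quasi-likelihood test, in which 10 genes of the whole table (0.064%) did. Each of the 9 had a positive log2 fold change, with a median of 1.83 against -0.01 over all genes tested. An unadjusted p under 0.05 went with a higher level in 7 of 9, against 6.77% of all genes tested, and 5 of 9 had groups that did not overlap, against 7.21%. Those 5 were Icam1, Itgal, Itgb2, Itgb7 and Selplg.

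Among leukocyte genes the edgeR log2 fold change was 1.83 (SE 0.51, adjusted p = 0.167) for Itgal, a 3.55-fold difference. It was 1.48 (SE 0.36, adjusted p = 0.124) for Itgb2 and 1.31 (SE 0.39, adjusted p = 0.191) for Selplg. Itga4 had 1.13 (SE 0.60, adjusted p = 0.522), and Itgb7 had 0.87 (SE 0.24, adjusted p = 0.162), the smallest difference with the smallest error. Among vessel-wall genes the log2 fold changes were larger and so were their errors. They were 3.49 (SE 1.38, adjusted p = 0.320) for Selp, 3.12 (SE 1.68, adjusted p = 0.525) for Sele, 2.5 (SE 0.81, adjusted p = 0.222) for Icam1 and 1.97 (SE 0.65, adjusted p = 0.230) for Vcam1.

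Same-numbered libraries of the 2 control groups deviated together over all genes, so the control libraries were also compared within numbers. In that view the 2 sets parted. For Selplg the log2 ratio of challenged over unchallenged control, with 0.5 CPM added to both, was 1.32, 1.28 and 1.23 in numbers 1, 2 and 3. Itgb2 gave 1.45, 1.35 and 1.64, Itga4 gave 1.03, 1.35 and 1.07, Itgb7 gave 0.97, 1.08 and 0.52, and Itgal gave 2.07, 1.53 and 1.35. All 15 ratios of the 5 leukocyte genes were positive, between 0.52 and 2.07. A positive ratio in all 3 numbers was found in 21.3% of all genes tested.

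Vessel-wall genes had no such even ratio. Icam1 gave 3.75, 0.11 and 0.73 and Vcam1 gave 2.60, 1 and 0.91 in numbers 1, 2 and 3. Sele gave 4.57, -1.52 and -0.51 and Selp gave 4.78, -0.38 and -0.04, so that both selectins were higher with challenge in 1 of 3 numbers. The ratios of a gene spanned 0.09 to 0.72 log2 units in the leukocyte set and 1.69 to 6.09 in the vessel-wall set. The share of all genes with such spans is not given. An even ratio was not particular to the 5 leukocyte genes: the leukocyte marker Ptprc gave 1.96, 1.57 and 1.85. The endothelial markers Cdh5 and Pecam1 gave -0.21, -1.62 and -0.88, and 0.08, -0.87 and -0.62, in numbers 1, 2 and 3.

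**Figure D2:**
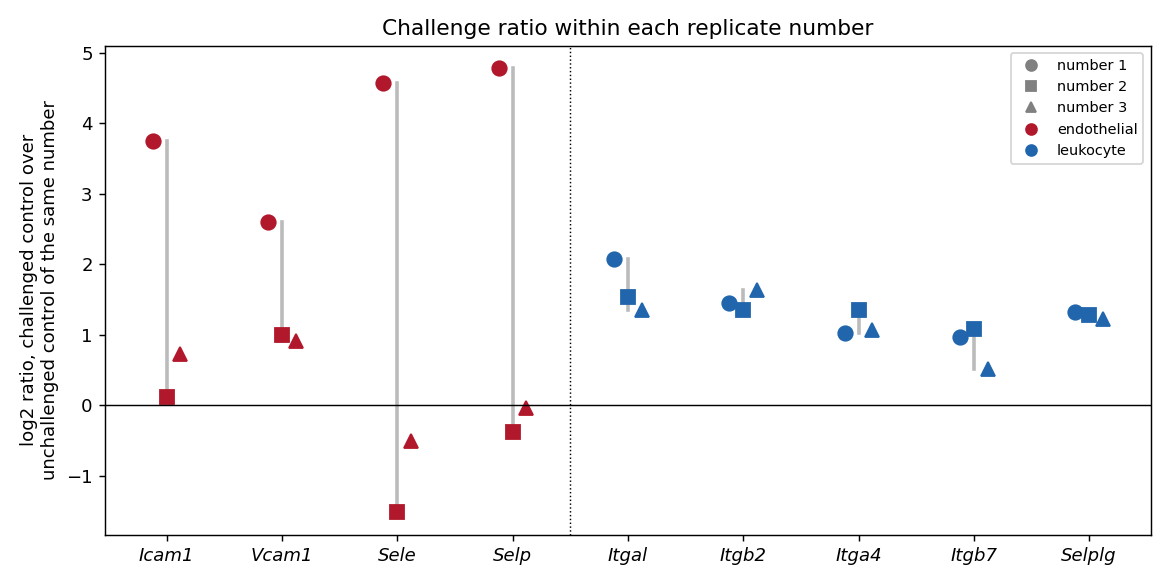
Log2 ratio of each challenged control over the unchallenged control of the same replicate number (0.5 CPM added to both), with 1 point per number and a bar from the lowest to the highest. The 5 leukocyte genes lie between 0.52 and 2.07 in all 3 numbers, and Icam1, Vcam1, Sele and Selp are far higher in number 1 than in numbers 2 and 3.

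With the replicate number as a block in edgeR over all 9 libraries, 3 of the 9 genes passed as higher with challenge, against 1.18% of all genes. They were Itgb2 (log2 fold change 1.5, SE 0.13, adjusted p = 0.00851), Itgal (1.71, SE 0.18, adjusted p = 0.0117) and Selplg (1.31, SE 0.17, adjusted p = 0.0200). This fit also blocked the knockouts, which were not taken as paired with the challenged controls. The pairing of the controls was itself inferred from these counts, so each adjusted p with the block depends on that choice. Itgb7 (adjusted p = 0.0635), Itga4 (adjusted p = 0.0647) and Vcam1 (adjusted p = 0.0670) did not pass with the block in edgeR. With the block in the 2 control groups alone, Itga4 (adjusted p = 0.0213) and Itgb7 (adjusted p = 0.0469) passed edgeR's test as well, and all 5 leukocyte genes were then called, against 2.23% of genes. DESeq2, which used no block, called Itgal, Itgb2, Selplg, Itgb7 and Vcam1, against 2.72% of genes, and gave no p for Sele and Selp.

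Without challenged control 1 the log2 fold change was 0.43 for Icam1, 0.73 for Vcam1, -2.51 for Sele and -0.19 for Selp. Leaving out unchallenged control 1 instead put Itga4 at 2.02. Without challenged control 1 Itgal was at 1.12, Itgb2 at 1.13, Selplg at 1, Itgb7 at 0.62 and Itga4 at 0.39. None of these 9 values passed edgeR's test (adjusted p of 0.297 to 0.983), and 4 of the 9, all leukocyte genes, were higher at an unadjusted p under 0.05, against 3.76% of the genes in that fit. The median of the 9 was 0.62, against -0.01 over all genes in that fit.

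The second comparison asked what loss of Vegfr3 in lymphatic vessels did to challenged tissue. It shares its challenged controls with the first, so low values here and high values there rest partly on the same 3 libraries. By edgeR none of the 9 genes passed over all genes, and none of the 15613 genes did (0.0%). At an unadjusted p under 0.05 there were 1325 genes by edgeR and 1705 by DESeq2. At an adjusted p under 0.05 DESeq2 called 242 genes. All 9 log2 fold changes were negative, with a median of -1.71 against 0.00 over all genes. An unadjusted p under 0.05 went with a lower level in 6 of 9, against 4.53% of genes, and 4 of 9 had groups that did not overlap, against 6.24%. Those 4 were Itgal, Itgb2, Itga4 and Itgb7.

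Itga4 had a log2 fold change of -1.82 (SE 0.62, adjusted p = 0.474) and Itgal of -1.71 (SE 0.51, adjusted p = 0.401) in knockouts against challenged controls. Itgb2 had -1.13 (SE 0.36, adjusted p = 0.431), Selplg had -0.98 (SE 0.39, adjusted p = 0.535) and Itgb7 had -0.65 (SE 0.24, adjusted p = 0.502). Vcam1 had -1.84 (SE 0.65, adjusted p = 0.489) and Icam1 had -1.61 (SE 0.79, adjusted p = 0.624). Sele had -2.31 (SE 1.61, adjusted p = 0.723) and Selp had -2.09 (SE 1.28, adjusted p = 0.695), by the same edgeR test. DESeq2 called 1 of the 9, Itgal (log2 fold change -1.72, adjusted p = 0.0342), against 0.724% of genes called lower.

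Without challenged control 1 the direction turned in 3 of the 4 vessel-wall genes. Icam1 was then at 0.47, Sele at 3.33 and Selp at 1.59, and Vcam1 remained negative at -0.60. Leukocyte genes stayed negative without it: Itga4 at -1.08, Itgal at -1, Itgb2 at -0.78, Selplg at -0.67 and Itgb7 at -0.40. None of these passed edgeR's test (lowest adjusted p 0.904), and 3 of the 9 had an unadjusted p under 0.05. They were Itgal and Itgb2, lower in knockouts as were 1.99% of the genes in that fit, and Sele, higher in knockouts as were 3.23%.

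**Figure D3:**
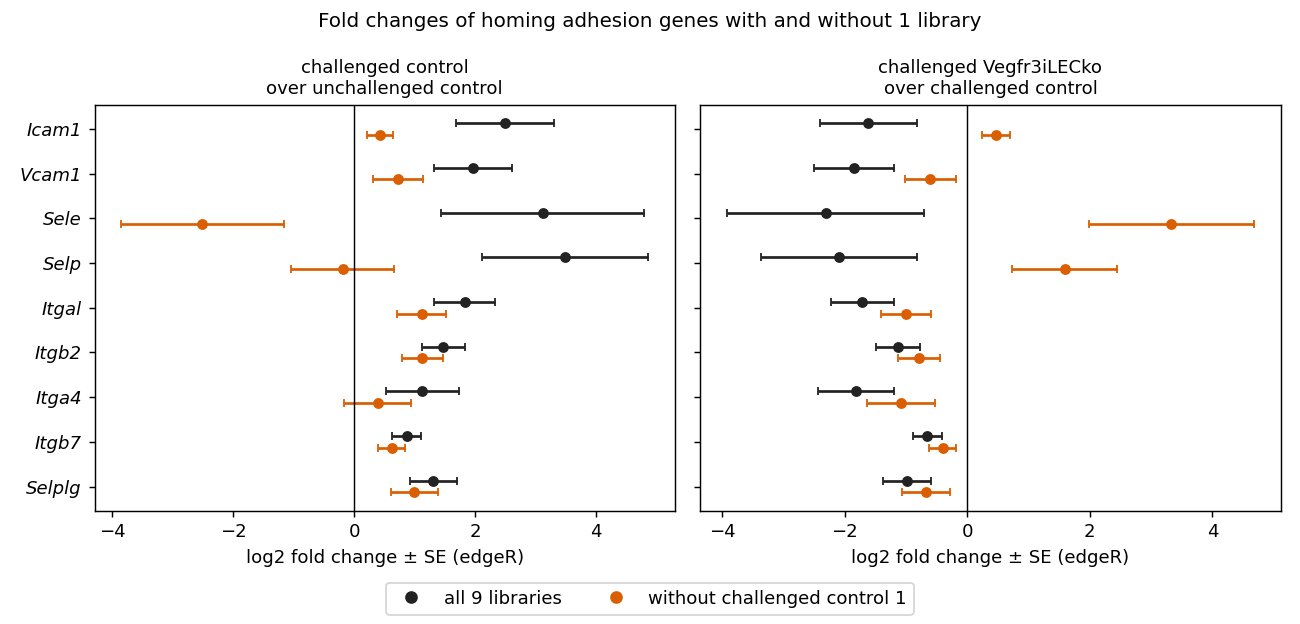
EdgeR log2 fold changes with SE for challenged over unchallenged controls (left) and for challenged knockouts over challenged controls (right), from all 9 libraries and without challenged control 1. Sele and Selp cross 0 in both panels and Icam1 in the right one when that library is left out, and the 5 leukocyte genes keep their side.

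Set against unchallenged controls, the challenged knockouts overlapped them in 8 of the 9 genes. These groups differ in challenge as well as genotype, and each also served in a comparison above. The edgeR log2 fold change was 0.12 (SE 0.50) for Itgal, 0.35 (SE 0.36) for Itgb2, 0.33 (SE 0.39) for Selplg, 0.22 (SE 0.24) for Itgb7 and -0.69 (SE 0.61) for Itga4. It was 0.89 (SE 0.78) for Icam1, 0.13 (SE 0.64) for Vcam1, 0.82 (SE 1.64) for Sele and 1.39 (SE 1.32) for Selp. All 9 had an adjusted p of 0.999 by edgeR, where 0.0% of genes passed. Icam1 was the 1 gene of the 9 whose groups did not overlap, against 3.26% of genes that were higher in this way. Left without challenged control 1, edgeR put Icam1 at 0.90 on the log2 scale (SE 0.20, unadjusted p = 0.00155, adjusted p = 0.973). That library is in neither group of this comparison, so leaving it out mainly changed the spread estimated over all groups (SE 0.78 with it). The share of all genes with so low an unadjusted p in that fit is not given.

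Each gene was also set against markers of a cell type that carries its product. Pan-leukocyte markers (8 genes, among them Arhgdib, the most abundant) summed to 563, 420.3 and 299 CPM in the challenged knockouts, 1159, 681 and 571 CPM in the challenged controls and 468, 353 and 342 CPM in the unchallenged controls. On the log2 scale their mean differed by 1.24 between challenged and unchallenged controls and by -1.03 between knockouts and challenged controls. With 3 against 3 libraries an exact two-sided permutation test cannot give a p below 0.1.

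The level of Selplg minus the marker mean differed by 0.03 log2 units with challenge and by 0.00 with genotype (exact permutation p = 0.800 and 1). Itgb2 differed by 0.24 with challenge (exact permutation p = 0.200) and by -0.06 with genotype (exact permutation p = 0.800). Itgal was 0.41 higher with challenge and 0.55 lower with genotype, without overlap in either (exact permutation p = 0.1 for both). Itga4 differed by -0.09 with challenge (exact permutation p = 0.800) and by -0.54 with genotype (exact permutation p = 0.1), where the groups only just did not overlap. Itgb7 differed by -0.39 with challenge (exact permutation p = 0.400) and by 0.42 with genotype (exact permutation p = 0.300). With Ptprc, the common leukocyte antigen CD45, as the only marker, the signs turned in 4 of the 5 genes. Itgal was then at -0.15 with challenge and 0.12 with genotype, Itgb2 at -0.32 and 0.61, Selplg at -0.52 and 0.67, and Itga4 at 0.13 with genotype.

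Blood endothelium markers (14 genes, Kdr the most abundant) did not, as a sum, share the pattern of the vessel-wall genes. They summed to 448, 222 and 263 CPM in the challenged knockouts, 250.4, 289 and 264 CPM in the challenged controls and 329, 464 and 297 CPM in the unchallenged controls. The library with the highest Icam1, Vcam1, Sele and Selp had the lowest endothelial sum of the 3 challenged controls, but its list members differed. Kdr was lowest there, at 30.4 CPM against 58.6 and 63.1 CPM in challenged controls 2 and 3. Pecam1, at 27.7 CPM against 21.3 and 12.8 CPM, was instead highest there, as were Cdh5, Esam and Vwf. Icam1 and Vcam1 are also made by other cells, and no level relative to leukocyte, stromal or epithelial markers is given for them. Relative to the endothelial mean, Vcam1 was 2.13 log2 units higher with challenge and 1.92 lower with genotype, without overlap in either (exact permutation p = 0.1 for both). Icam1 was 2.15 higher with challenge, again without overlap (exact permutation p = 0.1), and differed by -1.17 with genotype (exact permutation p = 0.5). Sele differed by 1.47 with challenge and -0.81 with genotype, and Selp by 2.08 and -0.97 (exact permutation p of 0.200 to 1). Without challenged control 1, Vcam1 was still 1.38 higher with challenge and 1.17 lower with genotype, and Icam1 1.05 higher and 0.07 lower (exact permutation p of 0.200 to 1). The muscle markers given above were also lower in challenged controls, and the endothelial mean differed by -0.63 log2 units with challenge and 0.51 with genotype. The part of the muscle in this was not tested.

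**Figure D4:**
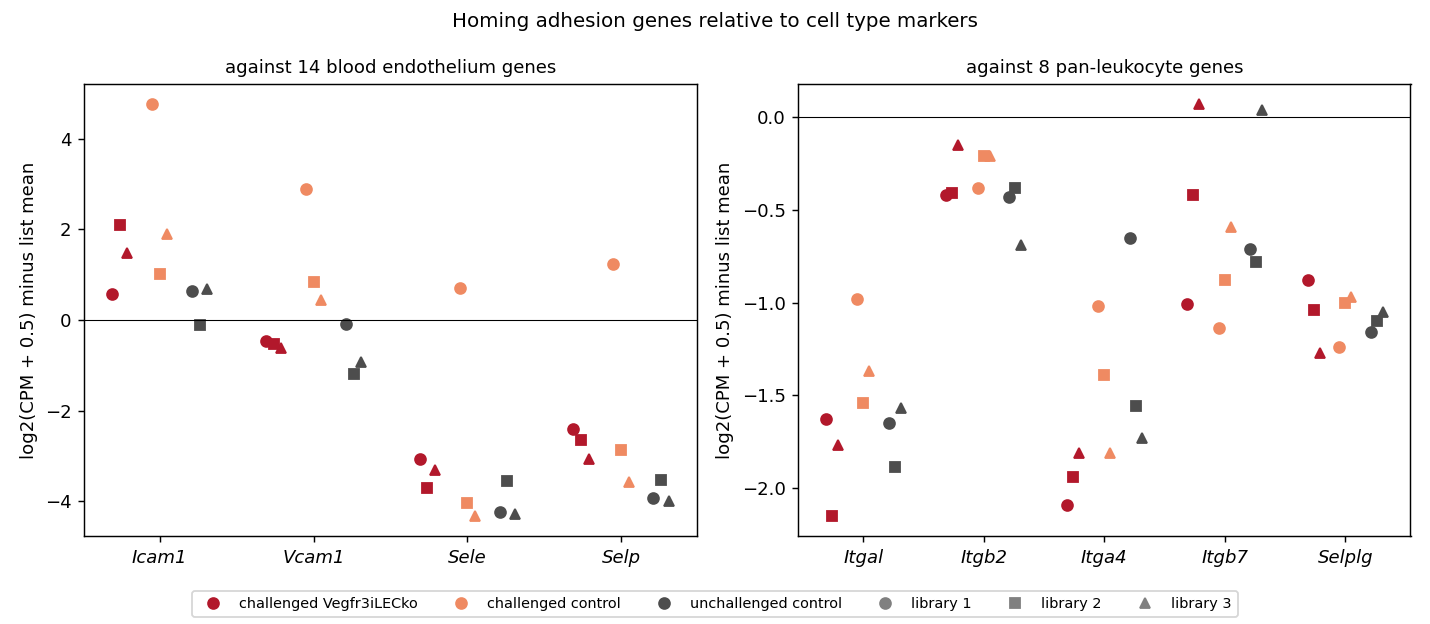
Level of each gene minus the mean of its marker list in log2(CPM + 0.5), per library, for vessel-wall genes against 14 blood endothelium genes (left) and leukocyte genes against 8 pan-leukocyte genes (right). Vcam1 is highest in all 3 challenged controls, Selplg overlaps between the groups, and challenged control 1 stands alone for Sele and Selp.

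The closest profiles were sought for each gene over the 9 libraries, as the smallest root mean square difference in log2 level after centring. Only tested genes with a mean of at least 1 CPM over these libraries were searched. Sele and Selp were each other's nearest gene of all (0.36 log2 units), next to own spreads of 1.52 and 1.49. The next nearest to Selp were Clec4d, a C-type lectin receptor of myeloid cells (0.39), and Dio2, a thyroid hormone deiodinase (0.47). Clec4d was also among the 3 nearest to Sele (0.59). Icam1 had Arid5a, an RNA-binding protein of inflammation, nearest (0.26), then Trbv14, a T cell receptor segment (0.29), and Plaur, the urokinase receptor (0.34). Vcam1 had Clec4n (0.18), Rnf125 (0.22) and Il10ra (0.23). All these neighbours, like the vessel-wall genes themselves, had their highest level in challenged control 1, so the likeness rests largely on that library. Trbv14, for example, was at 6.56 CPM there and at most 1.0 CPM elsewhere. Trbv14, Sele and, below, Scimp reached a mean of 1 CPM only with this library counted, so their likeness to genes high there was partly set by the filter.

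The neighbours of the leukocyte genes include genes of T cell and myeloid signalling such as Il2rg and Cd247. Itgb2 was nearest to Myo1g (0.12), Il2rg (0.14) and Cd300c2 (0.14), and Selplg to Sash3 (0.13), Padi4 (0.16) and Lcp1 (0.19), which is among the pan-leukocyte markers. Itgal was nearest to Gm36723 (0.18), Scimp (0.19) and Lpxn (0.21), Itga4 to Lpxn (0.23), BE692007 (0.24) and Aoah (0.24), and Itgb7 to Gpat3 (0.14), Cd247 (0.14) and Il18r1 (0.16). Among the 9 genes, Selplg was the nearest to Itgb2 (0.21) and Vcam1 the nearest to Itgal (0.33). Sele was the farthest from each of the 5 leukocyte genes, by 1.24 to 1.40 log2 units.

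Other genes of leukocyte traffic were taken from lists of pathway genes. Of 21 tested integrin chains beyond the 9 genes, 1 passed with challenge by edgeR, against 0.064% of all genes: Itgae, the partner of Itgb7 on T cells that lodge in epithelium. It was at 6.54, 6.72 and 4.29 CPM in the challenged knockouts, 27.0, 22.1 and 20.3 CPM in the challenged controls and 5.55, 3.25 and 5.35 CPM in the unchallenged controls. Challenge gave a log2 fold change of 2.30 (SE 0.29, adjusted p = 0.0339 by edgeR), or 2.17 without challenged control 1. Genotype gave -1.98 (SE 0.28, adjusted p = 0.271 by edgeR). The list's median was 0.11 with challenge and -0.23 with genotype. Itgb1, the other partner of Itga4, was abundant, at 442, 414 and 362 CPM in knockouts against 482, 380.2 and 433 CPM in challenged controls (log2 fold change -0.09, SE 0.16, adjusted p = 0.877 by edgeR). Itgax, a myeloid and dendritic cell chain that pairs with Itgb2, was at 10.5, 8.49 and 3.77 CPM in knockouts and 24.6, 16.2 and 14.6 CPM in challenged controls (adjusted p = 0.512 by edgeR).

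Genes listed for integrin activation and its control had 0 of 14 past edgeR's threshold with challenge, against 0.064% of all genes. With the block 5 were higher, against 1.18%. They had a median log2 fold change of 0.41. Skap1, a T cell adaptor that links the antigen receptor to LFA-1, was at 0.817, 1.24 and 0.686 CPM in the challenged knockouts and 6.99, 3.05 and 3.25 CPM in the challenged controls. It was at 0.733, 0.613 and 0.367 CPM in the unchallenged controls (challenge log2 fold change 2.94, SE 0.50, adjusted p = 0.0839 by edgeR, and 0.0284 with the block). Fyb, the adaptor that binds Skap1, followed at 1.33 (SE 0.31, adjusted p = 0.113 by edgeR, and 0.0379 with the block). With genotype Skap1 was at -2.27 and Fyb at -1.14 (adjusted p = 0.299 and 0.364 by edgeR).

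Of 14 tested genes of the selectin family and of selectin ligand synthesis, 0 passed with challenge by edgeR, against 0.064% of all genes, and 2 were higher with the block, against 1.18%. Spn, the leukocyte sialoglycoprotein CD43 that binds E-selectin, was at 6.77, 7.25 and 4.23 CPM in the challenged knockouts, 26.7, 15.8 and 12.7 CPM in the challenged controls and 7.48, 4.82 and 5.30 CPM in the unchallenged controls (challenge adjusted p = 0.101 by edgeR, and 0.0299 with the block). Cd44, a hyaluronan receptor that E-selectin also binds, was at 175, 167 and 122 CPM in the knockouts, against 520.3, 181 and 258 CPM in challenged controls (log2 fold change -1.05, SE 0.35, adjusted p = 0.467 by edgeR). The list's median was 0.19 with challenge and -0.18 with genotype.

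Of 14 other tested immunoglobulin-type and vessel adhesion genes, 0 passed with challenge in edgeR, with the block or in DESeq2, and the median was -0.70. At an unadjusted p under 0.05, 2 were lower, against 5.65% of all genes, and 0 higher, against 6.77%. Cdh5, the cadherin of endothelial junctions, was at 12.6, 10.5 and 7.36 CPM in challenged controls, against 14.7, 33.3 and 14.0 CPM in unchallenged controls (log2 fold change -1.03, SE 0.45, adjusted p = 0.396 by edgeR). Jam3, a junctional adhesion molecule, was at 3.71, 4.66 and 2.97 CPM in challenged controls against 7.33, 10.1 and 5.67 CPM in unchallenged controls (log2 fold change -1.03, SE 0.34, adjusted p = 0.230 by edgeR). With genotype the list's median was 0.49, and Mcam, at 25.5 CPM in knockout 1 and 3.95 and 5.66 CPM in knockouts 2 and 3, had a log2 fold change of 1.86 (SE 0.72, adjusted p = 0.527 by edgeR).

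Of 20 tested homing chemokines and receptors, 1 passed with challenge by edgeR, against 0.064% of all genes. This was Ccl5, a T cell chemokine. It was at 9.30, 18.5 and 8.69 CPM in the challenged knockouts, 41.4, 48.4 and 43.1 CPM in the challenged controls and 3.66, 3.45 and 2.57 CPM in the unchallenged controls (challenge adjusted p = 0.00674 by edgeR). The list's median was 0.59 with challenge, or 0.29 without challenged control 1. Cxcr3, the receptor of Cxcl9 and Cxcl10 on T cells, was at 1.40, 0.767 and 0.457 CPM in knockouts against 3.96, 2.82 and 3.37 CPM in challenged controls (log2 fold change -1.92, SE 0.45, adjusted p = 0.332 by edgeR). Cxcl10 was at 6.27, 63.8 and 19.3 CPM in knockouts against 1059, 4.57 and 44.6 CPM in challenged controls.

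Cytokines and NF-kB pathway genes that act on adhesion molecules had a median of 1.26 with challenge, and 0.45 without challenged control 1. Of 19 tested, 0 passed edgeR's test and 1 was higher with the block, against 0.064% and 1.18% of all genes. At an unadjusted p under 0.05, 11 were higher, against 6.77%. Ltb, lymphotoxin beta, was at 12.7, 8.11 and 8.95 CPM in the challenged controls, against 3.92, 2.53 and 2.89 CPM in unchallenged controls (adjusted p = 0.0839 by edgeR, and 0.0256 with the block). Il1a, an alarm cytokine of epithelium, was at 14.6, 13.8 and 9.95 CPM in knockouts against 108, 23.7 and 37.1 CPM in challenged controls (log2 fold change -2.14, SE 0.60, adjusted p = 0.376 by edgeR, and -1.25 without challenged control 1). Ifng, the interferon of T and NK cells, was at 0.117, 1 and 0.343 CPM in knockouts and 21.0, 1.61 and 2.28 CPM in challenged controls. It had no count in 2 unchallenged controls and 0.0766 CPM in the other.

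Challenged control 1 was thus also the library with the most Ifng, Il1a and Cxcl10. Il1b and Tnf, inducers of endothelial selectins and of Icam1 and Vcam1, were looked at after their values had been seen. Il1b was at 14.7, 3.18 and 1.26 CPM in the challenged knockouts, 355, 5.51 and 1.60 CPM in the challenged controls and 2.41, 0.957 and 0.630 CPM in the unchallenged controls. Tnf was at 4.83, 6.25 and 9.83 CPM in knockouts, 27.2, 12.0 and 12.4 CPM in challenged controls and 6.54, 7.35 and 2.78 CPM in unchallenged controls. Neutrophil markers (6 of 7 with counts, 5 of them tested, S100a9 the most abundant) were summed over those 6 genes. The sums were 274, 52.7 and 35.1 CPM in knockouts, 413, 74.8 and 25.8 CPM in challenged controls and 97.9, 50.3 and 14.4 CPM in unchallenged controls. Challenged control 1 and knockout 1, the libraries with the most neutrophil markers and Il1b, were also those with the most Sele and Selp. Other values did not go along. Unchallenged control 1 was next in neutrophil markers but had 0.314 CPM of Sele and 0.523 CPM of Selp, below unchallenged control 2. Knockout 1 was the lowest of the knockouts in Tnf and in Icam1, at 35.5 CPM against 50.5 and 38.9 CPM. The part of these cells and cytokines in the levels of the vessel-wall genes was not tested.

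The genes that shed adhesion molecules from the surface or anchor them in it showed 0 of 6 past edgeR's threshold, against 0.064% of all genes, with a median of 0.26 with challenge. Adam8, a leukocyte protease, was at 44.5, 51.3 and 33.0 CPM in the challenged knockouts, 123, 52.0 and 62.2 CPM in the challenged controls and 18.3, 39.5 and 17.7 CPM in the unchallenged controls. Challenge gave it a log2 fold change of 1.65 (SE 0.40, adjusted p = 0.121 by edgeR), and genotype gave -0.88 (SE 0.39, adjusted p = 0.586 by edgeR).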

How the data were processed

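Among tools, the submitters' processing notes list HISAT2, Bowtie2 and DESeq2, and as build mm39. What did the counting, with which annotation, versions and strand setting, is not given in the sources used here. Values in the deposited table are whole-number read counts, unnormalized, with 1 row per gene symbol (20603) and 1 column per library (9). Lengths, overlaps and promoter sequences come from GRCm38 annotation (GENCODE M21 and RefSeq) and are used with no mm39 coordinates.

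Genes were filtered with filterByExpr and tested in edgeR 4.0.16 (R 4.3.3, quasi-likelihood, TMM) in 1 fit of all 9 libraries, with Benjamini-Hochberg adjustment over 15613 genes. The SE of a log2 fold change is its size divided by the square root of the F statistic. Alternatives included DESeq2 1.42.0, other filters, a replicate block and leaving out each library. Intervals are not given for shares, and the 3-count floor covers counting error only. The same-numbered control libraries had correlations of deviations from group means of 0.273 to 0.527 over all tested genes, all above 0.1, so they were taken as paired from the data. Knockouts and challenged controls had -0.168 to 0.353 and were not. The labels do not say what a number marks. On simulated data of the challenge comparison (15395 genes), the test called 27.0% of genes changed 2-fold and 69.4% of those changed 4-fold. The simulated libraries were drawn independently, with no library set apart and no deviation shared by number. These shares therefore need not hold for the 9 genes.

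The genes and lists were chosen with earlier results of these data known. The rule for named genes took all 9 members and, from each list and comparison, up to 4 genes that passed or, where none did, the 2 of highest mean CPM and the 2 of smallest p; examples of these are printed. The most abundant gene of a marker list is named where that list is used.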

Additional observations from a re-analysis of the deposited data

How the results depend on the processing

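The number of genes called with challenge was 10, and 770 by DESeq2, 20 without a low-count filter, 1 with only the 2 control groups in the fit, 267 with the replicate block in all 9 libraries and 476 with the block in the 2 groups. Without single libraries it lay between 0 (unchallenged control 2 or 3) and 121 (unchallenged control 1), with 1 without challenged control 3, 35 without challenged control 2, and 6 and 5 without knockouts 1 and 3. With genotype it was 0, and 242 by DESeq2 and 22 with the replicate block in 9 libraries, Itgal and Itgb2 among them (adjusted p = 0.0354 for both by edgeR), although those libraries share only a number. The replicate block in those 2 groups alone gave 0, with both genes at an adjusted p of 0.111. Knockouts against unchallenged controls gave 0, and 14 by DESeq2. Both stayed at 0 under the other filters, DESeq2 size factors in edgeR and each left-out library. No gene of the 9 passed edgeR's test in any of the 9 fits that left out 1 library.

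Over the fits without 1 library, log2 fold changes that turned had these limits. With challenge they were -2.51 and 4.55 for Sele and -0.19 and 4.41 for Selp. With genotype they were -2.08 and 0.47 for Icam1, -3.23 and 3.33 for Sele and -2.87 and 1.59 for Selp. These turned without challenged control 1. Between knockouts and unchallenged controls they were -0.31 and 0.41 for Vcam1, -0.11 and 2.25 for Sele, -0.38 and 0.50 for Itgal, -0.10 and 0.63 for Selplg and -1.03 and 0.21 for Itga4. Of these, Vcam1, Sele, Itgal and Selplg turned without knockout 1, Vcam1 and Itgal without unchallenged control 3, Itgal without unchallenged control 2 and Itga4 without unchallenged control 1.

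Levels relative to markers ranged as follows when 1 library was left out. Sele ranged from -0.15 to 2.36 with challenge and from -1.69 to 0.82 with genotype, Selp from -1.88 to 0.52 with genotype, Itga4 from -0.30 to 0.24 with challenge, and Selplg from -0.01 to 0.12 with challenge and from -0.09 to 0.10 with genotype. Against Ptprc alone, Itgal (-0.15), Itgb2 (-0.32) and Selplg (-0.52) turned with challenge, and Itgal (0.12), Itgb2 (0.61) and Itga4 (0.13) with genotype. Selplg turned to -0.01 with genotype at a pseudocount of 0.1 CPM. The causes were not tested. Sele and Selp rest on few counts outside challenged control 1, so their values there are imprecise.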
